A study of Mus musculus with 26 samples.

Results

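The 10 genes described here encode enzymes that assemble triacylglycerol (TAG), proteins that coat lipid droplets (LDs), and proteins that set the rate at which TAG is broken down. They were taken by symbol from a fixed list (*Mogat2*, *Dgat1*, *Dgat2*, *Agpat2*, *Plin2*, *Plin3*, *Cideb*, *Cidec*, *Pnpla2* and *Hilpda*), and all 10 were found among the 55487 genes of the count table. They were measured by 3′ RNA-seq in pieces of the proximal small intestine (SI), cut just behind the stomach, of 26 mice. In knockout mice (labelled tg), tamoxifen activates a Cre recombinase under the *Villin* promoter, so that a floxed gene is deleted in intestinal epithelial cells (IECs). Control mice (labelled wt) were littermates with the floxed alleles but without the Cre transgene. Both genotypes were adult C57BL/6N mice of 8 to 12 weeks on normal chow and received 5 daily injections of tamoxifen. There were 7 knockout and 7 control mice 3 days after the last injection, and 6 and 6 mice 7 days after it.

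A piece of SI holds the epithelium with the lamina propria and muscle around it, and the deletion is carried by the epithelium. In such bulk samples fewer cells of a type and less RNA per cell cannot be told apart. The counts of a library summed to between 3720168 and 6338016, and the lowest count of any of the 10 genes in any library was 12. Levels are given in CPM, the count of a gene scaled to a common library total. Genotypes and days were compared on the counts with edgeR's quasi-likelihood test, and a gene was called at an adjusted p under 0.05. In 3 libraries, control replicate 5 and knockout replicate 1 of day 3 and control replicate 2 of day 7, the summed level of 8 stomach epithelium markers was between 633 and 5449 CPM, against at most 176 CPM in the others. Knockout replicate 1 of day 3 also had the lowest sum of 6 epithelium markers, 718 CPM, and of 7 enterocyte markers, 368 CPM. Pancreatic acinar markers summed to between 8859 and 23476 CPM in 4 libraries and to at most 3221 CPM in the rest.

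In enterocytes, absorbed monoacylglycerol and fatty acids are rebuilt into TAG in the endoplasmic reticulum. MOGAT2 joins a fatty acid to monoacylglycerol, and DGAT1 or DGAT2 adds the last one. AGPAT2 works in the other route to TAG, which starts from glycerol 3-phosphate. The product is either packed into chylomicrons for export or kept in cytosolic LDs. Perilipins such as PLIN2 and PLIN3 cover LDs, CIDEC enlarges them by moving lipid from small to large droplets, and CIDEB is known for its part in loading lipid onto lipoproteins. PNPLA2 (ATGL) takes the first fatty acid off stored TAG, and HILPDA inhibits it.

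At 7 days, *Plin2* and *Cidec* were higher and *Mogat2*, *Dgat1*, *Agpat2* and *Cideb* were lower in knockout than in control mice, whereas *Dgat2*, *Plin3*, *Pnpla2* and *Hilpda* did not pass the test. These 6 called genes of 10 stand against 38.5% of all 20259 genes tested at that day, 19.7% higher and 18.8% lower. The same 6 were those in which every knockout mouse lay above or below every control mouse, which was so for 22.6% of all genes, with knockout mice below in 11.6%. At 3 days, 0 of the 10 genes passed edgeR's test or the Wald test of DESeq2, where 1.43% of 20760 genes were called by edgeR. The genotypes were apart in 0 of the 10 genes at 3 days, against 0.848% of all genes, 0.356% above and 0.491% below. At an unadjusted p under 0.05, 4 of the 10, *Dgat2*, *Plin2*, *Plin3* and *Cidec*, had a higher level in knockout mice under either tool, where 13.6% of all genes had such a p and 7.52% were higher with it. This count was 2 with the replicate block and 0 without the 4 libraries with acinar transcripts. With the libraries scaled to the epithelium markers in place of all genes, the fall of *Agpat2* at 7 days became 0.01 on the log2 scale, and *Dgat2*, *Plin3*, *Pnpla2* and *Hilpda* were called higher. Of all 20259 genes, 9426 were then called higher and 1316 lower, with a median log2 fold change of 0.62. Under this scaling the other 5 called genes had the same direction and were still called, but the falls were smaller, with −0.32 for *Mogat2* (adjusted p = 0.0359), −0.73 for *Dgat1* and −0.92 for *Cideb*, and the rises of *Plin2* and *Cidec* (2.31) were larger (edgeR).

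**Figure D1:**
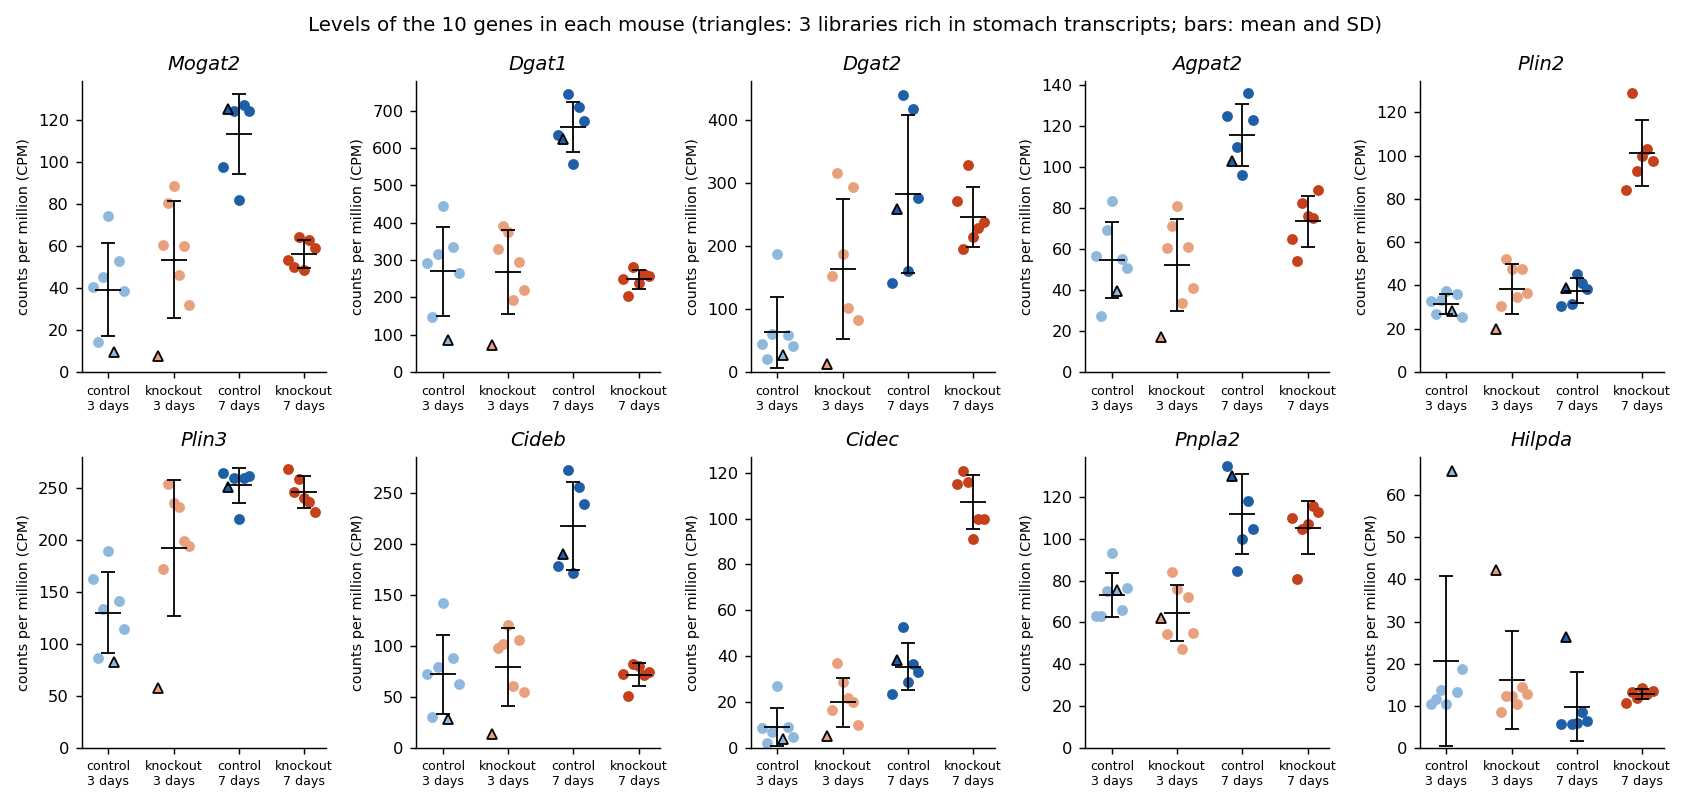
Level of each gene (CPM, linear axes from 0) in each mouse, by genotype and day, with the mean and SD as black bars and the 3 libraries rich in stomach transcripts as triangles. At 7 days the 6 knockout mice lie above all control mice for *Plin2* and *Cidec* and below them for *Mogat2*, *Dgat1*, *Agpat2* and *Cideb*.

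Among the synthesis genes, *Mogat2* (ENSMUSG00000052396, chromosome 7 of GRCm38, 99219084 to 99238619, minus strand) ranged at 7 days from 48.5 to 64.3 CPM (median 56.2) in knockout mice and from 81.6 to 127 CPM (median 124) in control mice. The ranges were apart, and the fall was 0.99 on the log2 scale (fold change 0.505, standard error (SE) 0.13, adjusted p = 6.01e-06, edgeR). At 3 days *Mogat2* ranged from 7.57 to 88.3 CPM in knockout mice and from 9.41 to 74.0 CPM in control mice, with medians of 59.8 and 40.3 CPM. Those ranges overlapped almost wholly, and the log2 fold change of 0.59 (95% confidence interval −0.36 to 1.54) was not called. The lowest mouse of each genotype was one of the libraries with stomach transcripts.

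*Dgat1* (ENSMUSG00000022555, chromosome 15, 76502015 to 76511953, minus strand), the enzyme of the final step that enterocytes are best known for, was between 205 and 282 CPM (median 252) in knockout mice and between 557 and 746 CPM (median 654) in control mice at 7 days. It fell by 1.38 (fold change 0.384, SE 0.12, adjusted p = 3.03e-08, edgeR). At 3 days the knockout mice had 268 ± 113 CPM and the control mice 270 ± 120 CPM (SD, n = 7 each). The log2 fold change of 0.13 (95% confidence interval −0.61 to 0.87) was not called.

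*Dgat2* (ENSMUSG00000030747, chromosome 7, 99153658 to 99182719, minus strand) encodes an enzyme for the same step that is unrelated to DGAT1 in sequence, and its gene lies 36364 bases from that of *Mogat2*. At 7 days it was between 196 and 329 CPM (median 234) in knockout mice and between 142 and 441 CPM (median 267) in control mice. The control mice enclosed the knockout mice, and the log2 fold change of −0.19 was not called (95% confidence interval −0.72 to 0.34, adjusted p = 0.607, edgeR). At 3 days *Dgat2* ranged from 12.4 to 316 CPM (median 152) in knockout mice and from 20.5 to 188 CPM (median 45.0) in control mice. The log2 fold change of 1.52 (95% confidence interval 0.36 to 2.69, adjusted p = 0.212, edgeR) was not called. Without knockout replicate 1, the lowest mouse, it was 1.73 and called (adjusted p = 0.0384, edgeR). It was not called without the 3 libraries with stomach transcripts, which include that mouse.

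*Agpat2* (ENSMUSG00000026922, chromosome 2, 26593057 to 26604417, minus strand) was between 54.0 and 88.6 CPM (median 75.8) in knockout mice and between 96.1 and 136 CPM (median 117) in control mice at 7 days. The fall of 0.63 (fold change 0.647, SE 0.13, adjusted p = 0.000719, edgeR) was the smallest of the 4 called falls. With all 26 libraries in 1 fit it was 0.62 and not called (adjusted p = 0.0748, edgeR). At 3 days the log2 fold change was 0.07 (95% confidence interval −0.57 to 0.70). Its exons share 64 bases with those of *Egfl7* on the opposite strand, a gene whose own log2 fold change at 7 days was 0.16 (adjusted p = 0.246, edgeR).

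Enterocyte and epithelium markers moved with the falls. At 7 days the 6 epithelium markers summed to between 1947 and 2523 CPM in knockout mice and between 2919 and 4398 CPM in control mice, and 5 of the 6 were called lower. The 7 enterocyte markers summed to between 1398 and 2854 CPM in knockout mice and to between 7068 and 10806 CPM in control mice. All 7 were called lower, with a median log2 fold change of −3.23, a larger fall than that of any of the 10 genes. Over the 26 libraries, after subtraction of the group means, *Dgat1* and the enterocyte sum had a Pearson correlation of 0.97 on the log2 scale. It was 0.96 for *Mogat2*, and 0.93 for both without the stomach-rich libraries. Genes that did not fall had 0.88 (*Plin3*), 0.84 (*Dgat2*), 0.77 (*Cidec*), 0.63 (*Plin2*), 0.26 (*Pnpla2*) and −0.71 (*Hilpda*) over the 26 libraries. These libraries share their cell mix, so the correlations are a description, and the part of the markers in the falls was not tested.

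**Figure D2:**
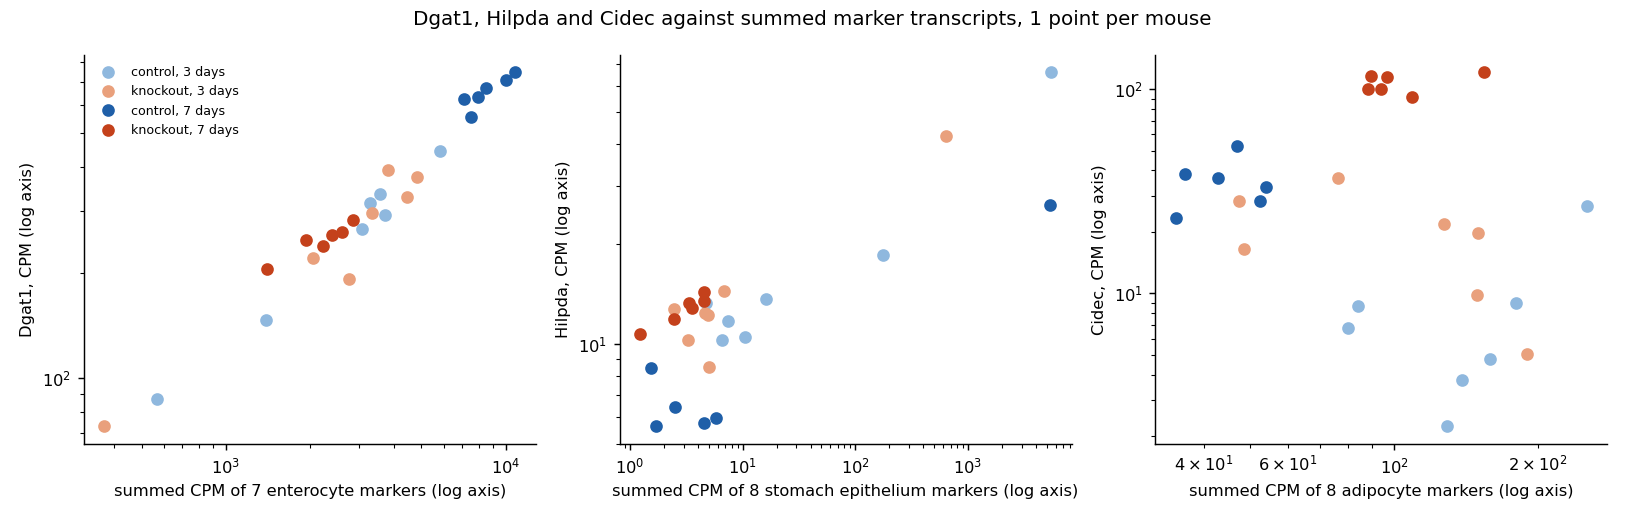
Level of *Dgat1*, *Hilpda* and *Cidec* (CPM, log axes) against the summed CPM of enterocyte, stomach epithelium and adipocyte markers (log axes), with 1 point per mouse coloured by genotype and day. *Dgat1* lies along 1 line with the enterocyte markers, the 3 highest *Hilpda* points are the 3 libraries with 633 to 5449 CPM of stomach markers, and *Cidec* is highest in the 6 knockout mice of day 7 at an adipocyte marker sum of 88.4 to 154 CPM.

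Among the coat genes, *Plin2* and *Cidec* were the 2 that rose, and the 250 bases before their start sites are shown here (RefSeq promoters on GRCm38.p6, 5′ to 3′ on the strand of the gene). *Plin2* starts at the end of chr4:86670060-86670309 that is nearest the gene, *Cidec* at that of chr6:113435761-113436010, and both lie on the minus strand. Capitals mark a match to the nuclear receptor half-site AGGTCA, here as its reverse complement. The motifs searched on both strands were AGGTCA, which 4607 of all 32851 promoters hold in this window, the hypoxia response core ACGTG, held by 16.6%, and TGATGNAA, the core of the C/EBP-ATF element, held by 3.45%.
Plin2: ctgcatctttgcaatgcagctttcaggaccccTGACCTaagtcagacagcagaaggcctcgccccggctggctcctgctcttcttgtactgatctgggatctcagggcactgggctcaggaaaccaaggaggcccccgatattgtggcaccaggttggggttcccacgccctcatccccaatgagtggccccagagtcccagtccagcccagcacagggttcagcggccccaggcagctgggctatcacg
Cidec: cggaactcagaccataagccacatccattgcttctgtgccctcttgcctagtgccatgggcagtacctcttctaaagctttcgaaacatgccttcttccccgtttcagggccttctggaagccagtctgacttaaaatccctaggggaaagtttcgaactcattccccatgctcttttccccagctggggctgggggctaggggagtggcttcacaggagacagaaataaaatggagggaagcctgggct
The *Plin2* window had 1 match, 218 to 213 bases before the start, and the *Cidec* window had none of the 3. The promoter table held 7 of the 10 genes, among which ACGTG was found for *Agpat2* and *Hilpda*. A match describes these letters and is no evidence of binding.

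*Plin2* (ENSMUSG00000028494, chromosome 4, 86648386 to 86670060, minus strand), the perilipin found on cytosolic LDs of most cells, was between 84.3 and 129 CPM (median 99.0) in knockout mice and between 30.6 and 45.4 CPM (median 38.5) in control mice at 7 days. The lowest knockout mouse was thus well above the highest control mouse. The rise was 1.45 on the log2 scale (fold change 2.74, SE 0.11, adjusted p = 5.37e-09, edgeR). At 3 days *Plin2* ranged from 19.8 to 52.1 CPM (median 36.5) in knockout mice and from 25.5 to 37.6 CPM (median 32.9) in control mice. The ranges overlapped, and the log2 fold change of 0.40 (95% confidence interval 0.01 to 0.79, adjusted p = 0.352, edgeR) was not called. Without knockout replicate 1, the lowest mouse, it was 0.52 and called (adjusted p = 0.0479, edgeR), but it was not called without the 3 libraries with stomach transcripts.

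*Plin3* (ENSMUSG00000024197, chromosome 17, 56277476 to 56292873, minus strand), a perilipin that also exists free in the cytosol and binds new droplets, was between 227 and 269 CPM (median 244) in knockout mice and between 220 and 265 CPM (median 260) in control mice at 7 days. Both genotypes covered nearly the same range. The log2 fold change was −0.02, with a 95% confidence interval of −0.22 to 0.19 (adjusted p = 0.925, edgeR). At 3 days it ranged from 57.8 to 254 CPM (median 199) in knockout mice and from 82.5 to 190 CPM (median 134) in control mice. The log2 fold change of 0.68 (95% confidence interval 0.12 to 1.25, adjusted p = 0.248, edgeR) was not called. Without the 3 libraries with stomach transcripts it was 0.77 and called (adjusted p = 0.0169, edgeR), and without knockout replicate 1 alone it was 0.85 and called (adjusted p = 0.0139, edgeR).

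*Cidec* (ENSMUSG00000030278, chromosome 6, 113424634 to 113435760, minus strand) was between 91.3 and 121 CPM (median 108) in knockout mice and between 23.4 and 52.7 CPM (median 34.9) in control mice at 7 days. It had the largest rise of the 10 genes, 1.62 on the log2 scale (fold change 3.06, SE 0.17, adjusted p = 3.31e-07, edgeR). At 3 days it ranged from 5.05 to 36.8 CPM (median 19.8) in knockout mice and from 2.23 to 26.8 CPM (median 6.77) in control mice. Here 1 control mouse, replicate 4, lay at 26.8 CPM and the other 6 at no more than 8.94 CPM. The log2 fold change of 1.28 (95% confidence interval 0.28 to 2.28, adjusted p = 0.224, edgeR) was not called, and without that mouse it was 1.86 and called (adjusted p = 0.0463, edgeR).

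*Cidec* is best known from adipocytes. Of 8 adipocyte markers, summed to between 88.4 and 154 CPM in knockout and to at most 54.0 CPM in control mice at 7 days, 6 were tested and 3 were called higher and 1 lower. Most of the sum was *Fabp4*, a fatty acid binding protein also made by endothelial cells and macrophages, at 73.6 to 111 CPM and 25.4 to 39.3 CPM. All others but *Acvr1c* also had a higher top value in knockout mice at 7 days. *Car3* was at 0.175 to 18.9 CPM against 0.171 to 3.79 CPM, and *Cfd* at 0 to 17.8 CPM against 0 to 0.869 CPM. *Adipoq*, which encodes adiponectin, reached 2.22 CPM against 0.947 CPM and was at 0 in 3 knockout and 2 control mice. *Lep*, which encodes leptin, reached 0.159 CPM in knockout mice and was at 0 in all control mice. *Retn* reached 0.476 against 0.192 CPM and *Adrb3* 1.40 against 0.869 CPM. *Acvr1c* went the other way, at 1.90 to 5.25 CPM against 4.99 to 12.8 CPM. At 3 days the adipocyte sum was 47.5 to 190 CPM in knockout and 80.1 to 253 CPM in control mice. After subtraction of the group means, *Cidec* and the adipocyte sum had a Pearson correlation of −0.16 over the 26 libraries. It was 0.02 without the 3 libraries with stomach transcripts. The part of adipocytes in the rise of *Cidec* was not tested.

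*Cideb* (ENSMUSG00000022219, chromosome 14, 55754050 to 55758458, minus strand) was between 50.6 and 82.3 CPM (median 73.3) in knockout mice and between 172 and 273 CPM (median 215) in control mice at 7 days. It had the largest fall of the 10 genes, 1.59 on the log2 scale (fold change 0.333, SE 0.16, adjusted p = 2.1e-07, edgeR). At 3 days the levels were 79.5 ± 38.2 CPM and 72.1 ± 38.8 CPM (SD, n = 7 each), and the log2 fold change of 0.29 (95% confidence interval −0.57 to 1.14) was not called. Of the 1488 exon bases of *Cideb*, 1136 overlap exons of *Nop9* on the opposite strand, and the stated counting options hold no strand setting. Reads in the shared bases therefore cannot be told apart, and their share of all *Cideb* reads was not measured. *Nop9* fell by 1.27 at 7 days (adjusted p = 5.47e-07, edgeR) and had a correlation of 0.99 with *Cideb* over the 26 libraries.

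*Pnpla2* (ENSMUSG00000025509, chromosome 7, 141455198 to 141460743, plus strand) differed little between the genotypes at either day. At 7 days it was between 80.7 and 116 CPM (median 109) in knockout mice and between 84.8 and 135 CPM (median 111) in control mice, with a log2 fold change of −0.06 (95% confidence interval −0.30 to 0.19, adjusted p = 0.753, edgeR). At 3 days it was between 47.1 and 84.1 CPM and between 63.1 and 93.3 CPM, with a log2 fold change of −0.08 (95% confidence interval −0.37 to 0.22). The ranges overlapped at both days.

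*Hilpda* (ENSMUSG00000043421, chromosome 6, 29272488 to 29275446, plus strand), which encodes a small inhibitor of ATGL that hypoxia and fatty acids induce, was between 10.7 and 14.3 CPM (median 13.1) in knockout mice and between 5.64 and 26.3 CPM (median 6.22) in control mice at 7 days. The value of 26.3 CPM came from control replicate 2, a library with 5341 CPM of stomach markers, and the other 5 control mice lay at no more than 8.47 CPM. With all mice the log2 fold change was 0.45 (95% confidence interval −0.18 to 1.09, adjusted p = 0.262, edgeR). Without control replicate 2, which is the same at 7 days as leaving out the libraries with stomach transcripts, *Hilpda* was 0.98 higher and called (adjusted p = 2.35e-05, edgeR), and all knockout mice lay above all remaining control mice. At 3 days the 2 highest values, 65.9 CPM in control replicate 5 and 42.3 CPM in knockout replicate 1, were again in libraries with stomach transcripts. The log2 fold change was −0.28 with all mice (95% confidence interval −1.22 to 0.66). It was 0.40 without control replicate 5 and −0.69 without knockout replicate 1, and neither was called. Apart from these 2 mice, *Hilpda* lay between 8.51 and 14.4 CPM in knockout and between 10.3 and 18.6 CPM in control mice.

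A change of the knockout effect from 3 to 7 days was tested in 1 fit of all 26 libraries. It was called for 4 of the 10 genes, 1 upwards and 3 downwards, where 18.4% of 19604 genes were called, 8.64% upwards and 9.74% downwards. The effect of *Plin2* was 1.07 higher on the log2 scale at 7 than at 3 days (SE 0.22, adjusted p = 0.000903, edgeR). That of *Cideb* was 1.86 lower (log2 difference −1.86, adjusted p = 0.00725, edgeR), that of *Mogat2* −1.56 (adjusted p = 0.0352) and that of *Dgat1* −1.50 (adjusted p = 0.0112). For *Cidec*, which had a positive log2 fold change at both days, the difference of 0.37 was not called (95% confidence interval −0.74 to 1.47). For *Dgat2* it was −1.69 (95% confidence interval −3.09 to −0.30, adjusted p = 0.0858, edgeR). Without the 3 libraries with stomach transcripts 7 genes were called, with *Dgat2* (−1.82), *Plin3* (−0.79) and *Hilpda* (1.01) added. Of all 19602 genes then tested, 4164 were called. Without the 4 libraries with acinar transcripts, and also with the scaling to epithelium markers, 2 were called, *Plin2* and *Cideb*. Of all genes, 2797 of 19378 were called without the acinar-rich libraries and 3209 of 19604 with the scaling. Without the acinar-rich libraries *Mogat2* was at −1.33 (adjusted p = 0.135) and *Dgat1* at −1.32 (adjusted p = 0.0587, edgeR). The scaling left *Mogat2* at −0.68 (adjusted p = 0.182) and *Dgat1* at −0.64 (adjusted p = 0.0893, edgeR). *Mogat2* lost its call when any 1 of 10 of the 26 mice was left out, its value staying between −1.77 and −1.39. Without knockout replicate 1 of day 3 the count was 7, where 4106 of 19684 genes were called.

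**Figure D3:**
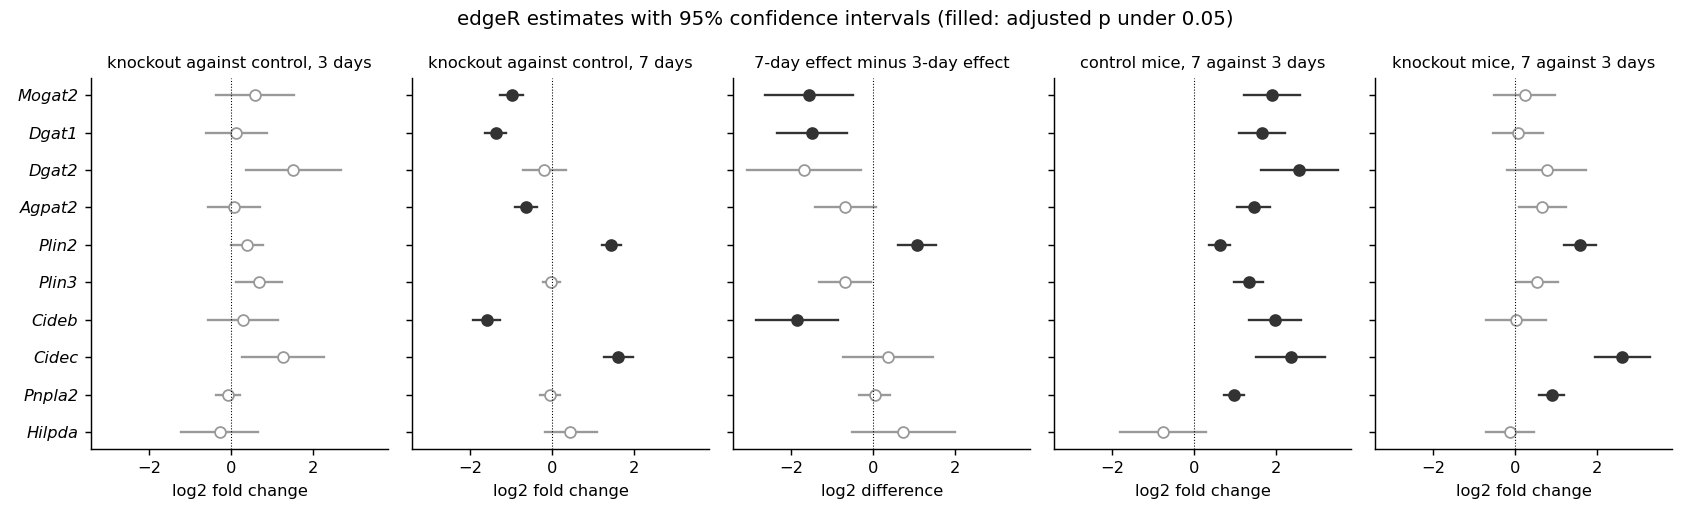
Log2 fold changes of the 10 genes with 95% confidence intervals from edgeR, for the genotypes at each day, the difference of the effects and the days within each genotype (filled points have an adjusted p under 0.05). The intervals at 7 days are narrower than at 3 days, *Plin2* and *Cidec* are the filled points to the right at 7 days, and in control mice all genes but *Hilpda* are filled and to the right.

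The days also differed within a genotype. In control mice 9 of the 10 genes were higher at 7 than at 3 days, all but *Hilpda*, where 36.0% of 20646 genes were called, 19.7% higher and 16.3% lower. The rises ranged from 0.62 for *Plin2* to 2.57 for *Dgat2* on the log2 scale. The 10 genes had a median of 1.56, against −0.06 over all genes tested, and in 5 of them, *Mogat2*, *Dgat1*, *Agpat2*, *Plin3* and *Cideb*, every mouse of day 7 was above every mouse of day 3, as in 3.94% of all genes (19.0% in either direction, 15.0% lower). *Dgat1* went from 270 ± 120 CPM (SD, n = 7) to 658 ± 67.3 CPM (SD, n = 6), a rise of 1.66 (SE 0.27, adjusted p = 0.000167, edgeR). *Plin3* went from 130 ± 39.3 CPM (SD, n = 7) to 253 ± 16.8 CPM (SD, n = 6), a rise of 1.33 (SE 0.17, adjusted p = 3.91e-05, edgeR). The 6 epithelium and 7 enterocyte markers were all called higher too, and the 7 smooth muscle markers were all called lower. With the libraries scaled to the epithelium markers, *Plin2* (−0.84), *Plin3* (−0.10) and *Pnpla2* (−0.50) turned downwards, and *Dgat1* (0.26) and *Agpat2* (0.03) were no longer called. Of all 20646 genes, 203 were then called higher and 17097 lower. The count among the 10 genes was 4 higher and 3 lower, the latter *Plin2* (adjusted p = 0.000729), *Pnpla2* (adjusted p = 0.0286) and *Hilpda* (−2.32, adjusted p = 0.000444, edgeR). *Hilpda* had a log2 fold change of −0.75 (95% confidence interval −1.81 to 0.30), and without the libraries with stomach transcripts it was −0.63 and called lower (adjusted p = 0.0161, edgeR). Day and any batch that goes with it cannot be told apart.

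In knockout mice 3 genes were higher at 7 than at 3 days, where 36.9% of 20329 genes were called, 16.7% higher and 20.2% lower. *Cidec* rose by 2.61 (SE 0.32, adjusted p = 9.79e-06, edgeR), from 19.8 ± 10.8 CPM (SD, n = 7) to 107 ± 11.8 CPM (SD, n = 6). *Plin2* rose by 1.58 (SE 0.19, adjusted p = 7.74e-06, edgeR), from 38.4 ± 11.4 CPM to 101 ± 15.0 CPM. In these 2 genes every mouse of day 7 was above every mouse of day 3, as in 6.26% of all genes, while the days were apart in either direction in 16.1% of genes and lower in 9.85%. *Pnpla2* rose by 0.90 (SE 0.14, adjusted p = 0.000163, edgeR), near its rise of 0.97 in control mice, but by only 0.22 and without a call under the scaling to epithelium markers. Without knockout replicate 4 of day 3 the count was 5, with *Agpat2* and *Plin3* added, where 7839 of 20629 genes were called. Among the markers, 7 of 7 for smooth muscle, 4 of 7 for enterocytes and 3 of 6 for macrophages were called lower between these days, and their part in the rises was not tested. None of the 10 was called lower with edgeR or DESeq2, and none had a lower level at an unadjusted p under 0.05 with either tool. The genes that fell against control mice at 7 days had small differences between the days in knockout mice, with 0.23 for *Mogat2* (95% confidence interval −0.52 to 0.98), 0.06 for *Dgat1* (−0.55 to 0.67) and 0.01 for *Cideb* (−0.71 to 0.74), while *Agpat2* had 0.66 (0.08 to 1.24, adjusted p = 0.0712, edgeR).

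Ordered by mean level, *Mogat2*, *Dgat1* and *Agpat2* were highest in control mice of day 7, and the other 3 groups overlapped each other in range. *Cideb* was also highest there, with 218 ± 43.2 CPM (SD, n = 6) in control mice of day 7 and means of 71.8 to 79.5 CPM in the others. *Plin2* and *Cidec* were highest in knockout mice of day 7. For *Plin2* the other groups had means of 31.5 to 38.4 CPM and overlapped, whereas *Cidec* stepped up from 8.84 ± 8.29 CPM in control mice of day 3 over 19.8 ± 10.8 and 35.4 ± 10.1 CPM to 107 ± 11.8 CPM. *Dgat2*, *Plin3* and *Pnpla2* had their highest means in both genotypes of day 7, which overlapped. For *Mogat2*, *Dgat1*, *Dgat2*, *Cideb* and *Cidec* the SD was between 42.3 and 93.7% of the mean at 3 days and between 10.2 and 44.5% at 7 days. For *Plin2* and *Pnpla2* in control mice it was much the same at both days, with 14.8 and 15.0% and with 14.5 and 17.0%.

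Within a mouse the balance of related genes shifted as well. These ratios were chosen after the values had been seen and are given without a test. The count of *Cidec* over that of *Cideb* was between 1.14 and 2.40 (median 1.41) in knockout mice and between 0.131 and 0.202 (median 0.154) in control mice at 7 days. At 3 days it was between 0.167 and 0.384 (median 0.235) and between 0.0729 and 0.188 (median 0.101), and 4 of the 7 knockout mice lay above all control mice. Of the 1488 exon bases of *Cideb*, 1136 overlap exons of *Nop9*, so the count of *Cideb* in this ratio can hold reads of *Nop9*. For *Plin2* over *Plin3* the ratio at 7 days was 0.314 to 0.523 in knockout and 0.115 to 0.206 in control mice, whereas at 3 days the mean log2 ratio was 0.26 lower in knockout mice (log2 difference −0.26) and the ranges overlapped. For *Dgat2* over *Dgat1* it was 0.873 to 1.17 and 0.224 to 0.591 at 7 days, and the mean log2 ratio was 1.25 higher in knockout mice at 3 days and 1.31 higher at 7 days. All 3 ratios at 7 days were apart between the genotypes.

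**Figure D4:**
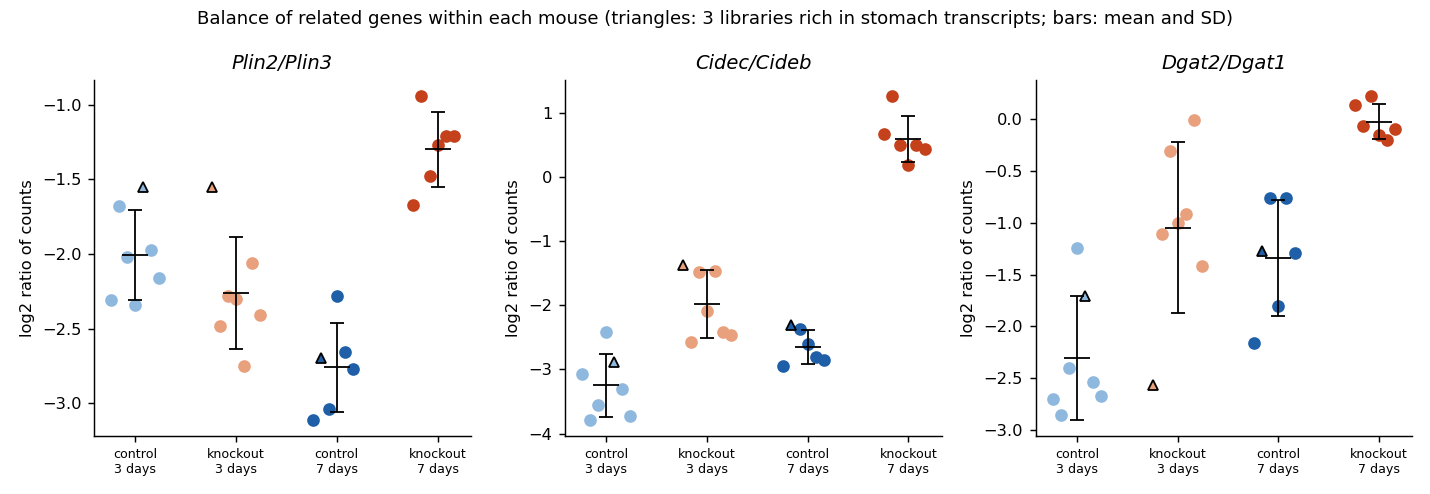
Log2 ratio of the counts of *Plin2* to *Plin3*, *Cidec* to *Cideb* and *Dgat2* to *Dgat1* in each mouse, by genotype and day, with the mean and SD as black bars and the 3 libraries rich in stomach transcripts as triangles. At 7 days the 6 knockout mice lie above the 6 control mice in all 3 panels, with mean log2 differences of 1.47, 3.24 and 1.31. The count of *Cideb* can hold reads of *Nop9*, whose exons overlap it.

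Related genes of the pathways were read from 3 lists. Of 27 further genes of glycerolipid and sterol ester synthesis, 25 were tested at 7 days, and 4 were called higher and 11 lower, with a median log2 fold change of −0.33. Over all genes tested that median was −0.02, and 38.5% were called, 19.7% higher and 18.8% lower. The falls included *Acsl6* (−3.57), *Slc27a4* (−3.28) and *Gpd1* (−1.46), and the rises *Acsl4* (2.98), *Acsl3* (2.16) and *Lpin2* (0.94), with adjusted p between 2e-12 and 0.00031 (edgeR). The ACSL enzymes activate fatty acids to acyl-CoA, and they moved in both directions. *Acsl4* was between 74.7 and 113 CPM in knockout mice and between 8.67 and 18.0 CPM in control mice. *Acsl3*, whose product is found on forming LDs, was between 194 and 348 CPM and between 46.4 and 74.1 CPM. *Slc27a4*, which encodes the fatty acid transport protein FATP4, was between 29.2 and 37.5 CPM in knockout and between 274 and 390 CPM in control mice. *Gpd1* makes glycerol 3-phosphate, and *Lpin2* encodes a phosphatidic acid phosphatase.

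Of 24 further genes of the LD coat and LD biogenesis, 22 were tested at 7 days, and 8 were called higher and 2 lower, with a median of 0.19, beside the same 38.5% over all genes. The rises included *Mettl7b* (1.62, adjusted p = 6.67e-05), *Hsd17b13* (1.59, adjusted p = 1.23e-07) and *Cidea* (1.17, adjusted p = 0.0118, edgeR), which encode proteins of the LD surface. The falls were *Hsd17b11* (−1.70, adjusted p = 3.09e-07) and *Vps13a* (−0.35, adjusted p = 0.00977, edgeR). *Hsd17b13* was between 96.7 and 135 CPM in knockout and between 21.2 and 48.0 CPM in control mice, and its relative *Hsd17b11* between 117 and 206 CPM and between 454 and 857 CPM. Of the perilipins outside the 10 genes, *Plin4* differed by 0.16 on the log2 scale (adjusted p = 0.681, edgeR), *Plin5* by −0.94 (adjusted p = 0.367) and *Plin1*, a marker of adipocytes, was too low to be tested, at no more than 1.11 CPM at 7 days.

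Of 15 further genes of lipolysis and its regulators, 13 were tested at 7 days, and 4 were called higher and 7 lower, with a median of −0.42. Over all genes 38.5% were called, 19.7% higher and 18.8% lower. *G0s2*, which encodes an inhibitor of ATGL, rose by 1.74 (adjusted p = 1.09e-07), *Abhd5*, which encodes its activator CGI-58, by 1.31 (adjusted p = 4.85e-07), and *Mgll*, which encodes monoacylglycerol lipase, by 1.09 (adjusted p = 1.09e-07, edgeR). The falls included the carboxylesterase *Ces1g* (−6.04, adjusted p = 2.81e-07), *Pla2g16* (−2.29, adjusted p = 1.94e-08) and the carboxylesterase *Ces1d* (−2.28, adjusted p = 7.33e-05, edgeR). With the scaling to epithelium markers the counts became 12 higher and 4 lower for synthesis, 19 and 1 for the coat and 6 and 4 for lipolysis. Of all 20259 genes, 9426 were called higher and 1316 lower under it, and their median was 0.62 in place of −0.02.

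At 3 days 3 genes of these lists were called, all higher, 1 of 23 tested in the coat list and 2 of 13 in the lipolysis list, where 1.43% of all genes were called. The coat list had a count of 1 under all alternatives run. The lipolysis count of rises was 0 with the replicate block, 1 without the libraries with acinar transcripts, with the epithelium scaling, without a filter and when any 1 of 11 of the 14 mice was left out, and with DESeq2 it was 3. A fall was called in 1 gene with DESeq2 and in 1 without knockout replicate 6. *Hsd17b13* was between 17.9 and 141 CPM in knockout and between 4.30 and 27.7 CPM in control mice (log2 fold change 2.46, SE 0.39, adjusted p = 0.00224, edgeR). *G0s2* was between 5.47 and 62.0 CPM and between 8.06 and 14.3 CPM (log2 fold change 2.12, SE 0.34, adjusted p = 0.00255, edgeR). *Lipa*, which encodes the lysosomal acid lipase, was higher by 0.86 on the log2 scale (adjusted p = 0.0481, edgeR). In the synthesis list 0 of 26 genes were called by edgeR or DESeq2, and 12 had an unadjusted p under 0.05 with either tool. By edgeR 13.6% of all genes had such a p. The 12 are not split by direction here, and the list had a median log2 fold change of 0.07, against −0.03 over all genes.

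**Figure D5:**
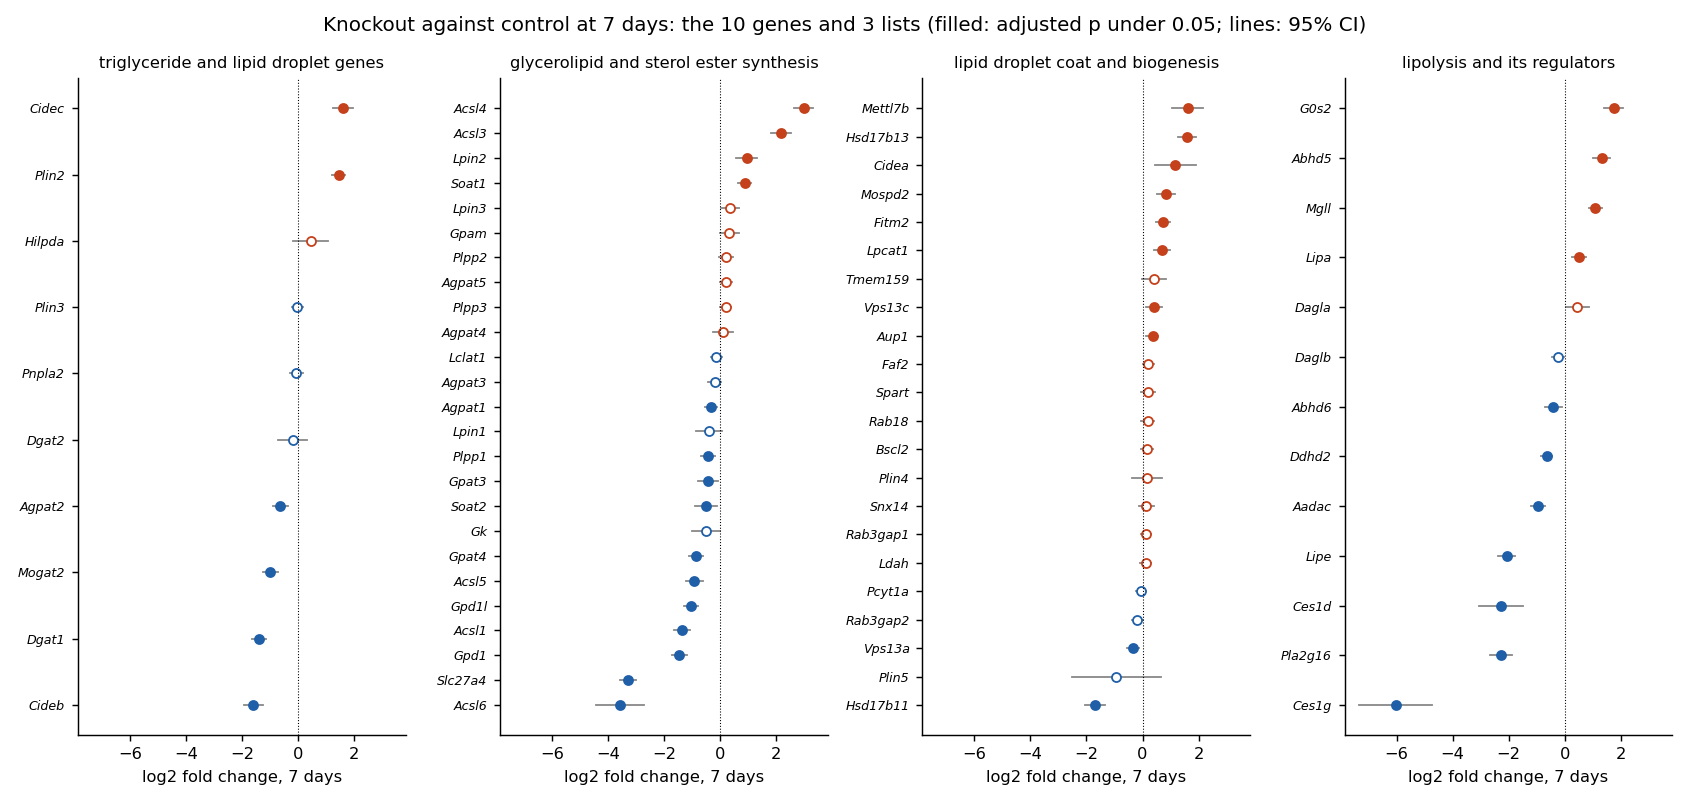
Log2 fold change between knockout and control mice at 7 days with 95% confidence intervals, for the 10 genes and for the tested genes of 3 lists, sorted within each panel (filled points have an adjusted p under 0.05, red points lie above 0 and blue points below). Filled points number 4 above and 11 below 0 for synthesis, 8 and 2 for coat and biogenesis and 4 and 7 for lipolysis, where 19.7% of all genes were called higher and 18.8% lower.

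The genes most like each of the 10 were taken as those with the highest Pearson correlation of the log2 CPM over the 26 libraries, after subtraction of the group means, among 9519 genes that averaged 10 CPM or more. The libraries share depth and cell mix, so these are descriptions. *Dgat1* and *Mogat2* had a correlation of 0.98 with each other and shared *Acsl5*, which encodes a fatty acid activating enzyme, as the gene most like them (0.99 and 0.98). *Dgat2* was most like *Por* (0.96), *Agpat2* like *Gpa33* (0.96), *Plin3* like *Prxl2a* and *Creb3l3* (0.94 each) and *Cideb* like *Nop9* (0.99), with which it shares exons, and *Tm6sf2* (0.98). *Cidec* was most like *2010001M07Rik* and *Apol7a* (0.92 each), and *Plin2* like *Cck* (0.83). *Pnpla2* had its closest match in *Samd9l* (0.85) and *Hilpda* in *Gne* and *Creb3l4* (0.96 each). Among the 10 genes, *Hilpda* stood opposite to *Dgat1* (−0.64) over the 26 libraries. Its correlation with the stomach marker sum was 0.93, or 0.61 without the 3 libraries in which that sum was over 500 CPM. With the enterocyte sum it was −0.71, or −0.13 without those libraries. The correlations of *Hilpda* with single genes were not taken without them.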

How the data were processed

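Total RNA of 26 pieces of proximal small intestine, each from 1 mouse, was sequenced from the 3′ end. The authors trimmed reads with Cutadapt (version 2.10), aligned them to GRCm38 with Subread and made estimated counts per gene with featureCounts (version 2.0.1), where a read over several genes is split between them. The stated options hold no strand setting, which leaves the counting without strand by default. The deposited estimated counts were rounded to whole numbers for the fits. The deposited CPM values were used only to check that they equal the counts over the library totals.

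Genes that had no count in most libraries of a group under comparison were left out. The genotypes at each day, the difference of their effects (all 26 libraries) and the days within each genotype were compared with edgeR (version 4.0.16, TMM normalization, quasi-likelihood test, two-sided, Benjamini-Hochberg adjustment, threshold 0.05). Groups came from the labels, and p-values measure the spread between mice. Total counts per library, 3720168 to 6338016, set the precision of low genes. Alternatives were the Wald test of DESeq2 (version 1.42.0) and its size factors, other filters, a replicate block, 1 fit of all libraries and leaving out each mouse. Chosen after seeing the data were leaving out libraries rich in stomach or acinar transcripts, a scaling to epithelium markers, and the ratios. The scripts were tested on simulated data. The genes, lists and tests were chosen with earlier results of these data known. The named genes are the 10 members, and in each list up to 3 called rises and 3 called falls of the greatest size, beside overlapping genes and the perilipins, which were chosen afterwards. The deleted gene is not reported here.

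No pairing was taken from the replicate numbers, as same-numbered mice did not deviate together throughout. The libraries also differ in cell mix, so this cannot exclude a pairing. Exons and positions are from the GENCODE annotation of GRCm38, and promoter sequences from RefSeq on GRCm38.p6.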

Additional observations from a re-analysis of the deposited data

Results flagged for a closer look

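In 11 of the 40 combinations of gene and group, 1 mouse lay far from the others of its group, where chance gives about 1 in 20, or 2.0. Knockout replicate 1 of day 3 was the far lowest for *Mogat2* (7.57 CPM, next 32.0), *Dgat1* (72.9 CPM, next 192), *Dgat2* (12.4 CPM, next 82.3), *Plin3* (57.8 CPM, next 172) and *Cideb* (13.1 CPM, next 54.3), and the far highest for *Hilpda* (42.3 CPM, next 14.4). This mouse also had the lowest epithelium and enterocyte marker sums (718 and 368 CPM) and 633 CPM of stomach markers, whose part in these values was not tested. *Hilpda* was also far highest in control replicate 5 of day 3 (65.9 CPM, next 18.6) and control replicate 2 of day 7 (26.3 CPM, next 8.47), the other two libraries rich in stomach markers. At 7 days, control replicate 4 was lowest for *Plin3* (220 CPM, next 251), and knockout replicate 2 was lowest for *Cideb* (50.6 CPM, next 71.3) and *Pnpla2* (80.7 CPM, next 105).

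The genotype effect differed between the days by edgeR's test of the difference for *Mogat2* (−1.56), *Dgat1* (−1.50), *Plin2* (1.07) and *Cideb* (−1.86, on the log2 scale).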

How the results depend on the processing

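At 7 days, 6 of the 10 genes were called, and 6 or 7 when any 1 mouse was left out, the seventh being *Hilpda*. The count was 5 with all libraries in 1 fit and 9, 6 higher and 3 lower, with the epithelium scaling. Over all genes 7790 were called in the main fit and 7159 to 7867 without 1 mouse. With all libraries in 1 fit 6954 were called, and with the scaling 10742. At 3 days the count of all called genes moved from 297 to 769 with DESeq2, 99 with the replicate block, 810 with all libraries in 1 fit, 774 without the stomach-rich libraries, 105 without the acinar-rich libraries and 45 with the epithelium scaling, and to between 171 and 779 without 1 mouse. Of the 10 genes, 1 was called at 3 days without the stomach-rich libraries and 0 to 3 without 1 mouse. For the difference of effects, 7 were called without the stomach-rich libraries, 2 without the acinar-rich ones, 2 with the epithelium scaling, and 3 to 7 without 1 mouse. Over all genes these counts were 4164, 2797, 3209 and 3119 to 4106, against 3603 in the main fit. In knockout mice between the days, 3 to 5 were called without 1 mouse, 5 of them without replicate 4 of day 3. Over all genes, 6381 to 7839 were called without 1 mouse, against 7509 with all mice. The causes were not tested.

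The epithelium scaling moved the median of all genes at 7 days from −0.02 to 0.62 and the share of calls that were higher from 51.1 to 87.7%. For the difference of effects that share went from 47.0 to 86.6%, in control mice between the days from 54.8 to 1.17% (with 17300 genes called), and in knockout mice from 45.3 to 6.83%. Under it the direction turned at 3 days for *Agpat2* (−0.17) and *Dgat1* (−0.09), at 7 days for *Dgat2* (0.52), *Agpat2* (0.01), *Plin3* (0.64) and *Pnpla2* (0.56), for the difference of effects of *Agpat2* (0.18) and *Plin3* (0.12), in control mice between the days for *Plin2* (−0.84), *Plin3* (−0.10) and *Pnpla2* (−0.50), and in knockout mice for *Mogat2* (−0.14), *Dgat1* (−0.37) and *Cideb* (−0.37).

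Other turns were of values not called in either fit. At 3 days they were *Hilpda* with DESeq2 (0.40), *Agpat2* with the replicate block (−0.02) and without the acinar-rich libraries (−0.06), and *Dgat1* without these (−0.03). In knockout mice between the days they were *Dgat1* (−0.11), *Cideb* (−0.18) and *Hilpda* (0.29) without the stomach-rich libraries. Leaving out 1 mouse gave ranges across 0 at 3 days for *Agpat2* (−0.09 to 0.23), *Dgat1* (−0.02 to 0.30) and *Hilpda* (−0.69 to 0.40), at 7 days for *Dgat2* (−0.36 to 0.01) and *Plin3* (−0.10 to 0.02), for the difference of effects of *Cidec* (−0.22 to 0.58) and *Pnpla2* (−0.04 to 0.11), and in knockout mice for *Cideb* (−0.18 to 0.23), *Dgat1* (−0.11 to 0.24) and *Hilpda* (−0.20 to 0.29).

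With the replicate block, *Mogat2* lost its call for the difference of effects (−1.52, adjusted p = 0.0576, edgeR). Correlations of same-numbered mice ran from −0.258 to 0.281 at 3 days and from −0.126 to 0.244 at 7 days. Of these, 2 of 7 and 2 of 6 correlated best with their own number, so a pairing was neither shown nor excluded. Depth limits the low genes most, and an uncalled value does not show that the groups were alike.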
